A study of Mus musculus with 12 samples.

Results

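The SR proteins are splicing factors that carry 1 or more RNA recognition motifs and a tail rich in arginine and serine. The 10 SR genes described here were *Srsf1*, *Srsf2*, *Srsf3*, *Srsf4*, *Srsf5*, *Srsf6*, *Srsf7*, *Srsf9*, *Srsf10* and *Srsf11*. They were chosen by name, and each symbol matched 1 of the 46517 gene identifiers in the count tables. Levels are given as CPM, counts relative to the library size scaled with TMM factors. All 10 exceeded 1 CPM in some sample and were tested, as were 15673 genes in all. Counts of an SR gene in a sample ranged from 980 to 25067.

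RNA was sequenced from an *Eomes* reporter line of mouse embryonic stem cells (ESCs) on a C57BL/6 background, in which EGFP is inserted at the start of the endogenous *Eomes* gene. Wild-type (WT) cells of this line were compared with *Meteor* knockout (KO) cells, from which a CRISPR-Cas9 nickase had removed the enhancer upstream of *Eomes* together with the start site of its long noncoding RNA. Both genotypes carry the reporter and were sampled undifferentiated at day 0, when they grew on mouse embryonic fibroblast feeders, and at day 3 of differentiation as embryoid bodies in hanging drops, with 3 replicates each. KO cells came from picked clones, how many of them were sequenced is not given in the sources used here, and any feature of a clone cannot be told apart from the deletion. Nothing in the labels says that replicates were separate cultures, so p-values measure the spread between these samples.

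SR proteins bind enhancers in exons and help the spliceosome recognise nearby splice sites. Many SR genes limit their own output by splicing in a poison exon, a short exon with a stop codon ahead of the last exon junctions, so that the transcript is degraded by nonsense-mediated decay (NMD). SR proteins are needed in dividing cells, and several are essential for early mouse development. Reads were counted per gene, so a poison-exon transcript and the productive one were summed here, and transcript isoforms were not analysed.

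In the GENCODE M21 annotation of GRCm38, 9 of the 10 genes had at least 1 transcript classed as an NMD target, and *Srsf10* had none. Such a transcript was annotated for 27.2% of all tested protein-coding genes. In 6 genes the stop codon lay in an exon that the principal transcript lacks, which is the textbook form of a poison exon. These 6 are shown from the first base of the exon to the stop codon, which is in capitals, 5′ to 3′ on the strand of the gene. They show how soon each exon ends the reading frame.
Srsf4: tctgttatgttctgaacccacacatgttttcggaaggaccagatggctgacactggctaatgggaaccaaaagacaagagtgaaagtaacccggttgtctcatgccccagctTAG
Srsf6: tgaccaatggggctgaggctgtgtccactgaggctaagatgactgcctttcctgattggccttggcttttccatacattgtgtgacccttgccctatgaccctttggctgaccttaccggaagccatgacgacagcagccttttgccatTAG
Srsf9: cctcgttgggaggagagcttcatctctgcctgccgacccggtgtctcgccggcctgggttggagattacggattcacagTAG
Srsf3: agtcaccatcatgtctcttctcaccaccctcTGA
Srsf7: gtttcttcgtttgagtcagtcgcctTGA
Srsf11: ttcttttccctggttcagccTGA

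The *Srsf4* sequence lies on the plus strand at chr4:131884276-131884390 in an exon of 207 bases, and the *Srsf6* sequence on the plus strand at chr2:162932815-162932966 in an exon of 268 bases. The *Srsf9* sequence is at chr5:115328347-115328428 on the plus strand, in an exon of 358 bases. *Srsf3* reaches its stop within 34 bases of an exon of 456 bases at chr17:29039454-29039487, plus strand. *Srsf7* reaches it within 28 bases of an exon of 460 bases at chr17:80205054-80205081, minus strand. *Srsf11* has the shortest stretch, 23 bases of an exon of 109 bases at chr3:158024209-158024231, minus strand. In the 1 NMD transcript shown per gene, there were between 456 and 700 bases from the stop to the last exon junction. Its annotated support level, from 1 (strongest) to 5 (weakest), was 1 in *Srsf3* and 5 in *Srsf4*, *Srsf6*, *Srsf9* and *Srsf11*. For *Srsf7* no level was given. Another annotated transcript with the same stop had 422 bases in *Srsf3*, 706 in *Srsf4* and 196 in *Srsf11*. In *Srsf1* and *Srsf5* the early stop lay in an exon that overlaps one of the principal transcript. In *Srsf2* the NMD transcripts used the normal stop and were spliced again downstream of it.

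Samples held between 17455927 and 23910943 gene counts, and between 36.52% and 44.09% of alignments were not unique and stayed out of the counts. *Platr11*, a noncoding transcript of the *Meteor* locus, was at 1.57 to 6.12 CPM in WT and 0 to 0.0551 CPM in KO samples at day 0, and at 0 in KO samples at day 3. The 8 pluripotency markers summed to 3733 to 4703 CPM in WT and 4802 to 5750 CPM in KO samples at day 0. Singly, 1 of the 8 was called higher in KO cells, where 9.56% of all tested genes were, and none lower, where 10.9% were. Their sums at day 3 overlapped, with 994 to 2083 CPM in WT and 1499 to 1687 CPM in KO samples. There 4 were called higher and 1 lower, beside 14.3% and 16.7% of all tested genes. At day 3 the 8 primitive streak and mesendoderm markers summed to 933 to 1819 CPM in WT and 76.7 to 152 CPM in KO samples. The 8 fibroblast feeder markers summed to 80.4 to 242 CPM in WT and 117 to 317 CPM in KO samples at day 0, and to 44 to 67.3 and 39.3 to 80.7 CPM at day 3, with none at 0 in a whole group. These sums moved with day. Between genotypes they did not overlap for the pluripotency markers at day 0 and the streak markers at day 3. The feeder sums overlapped between genotypes at both days. The part of these makeups in the SR results was not tested. In bulk RNA, fewer cells of a type and less RNA per cell cannot be told apart.

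SR gene levels were first placed in order within each group, as CPM per kilobase of annotated exon. In WT ESCs at day 0, *Srsf2*, a factor concentrated in nuclear speckles, had the highest level with 283.9 ± 2.2 CPM per kb (SD, n = 3). *Srsf1*, the founding member that also acts in mRNA export and translation, followed with 176.3 ± 17.9 CPM per kb, and *Srsf6* with 153.1 ± 8.3 CPM per kb. The levels of *Srsf1* and *Srsf6* overlapped when 1 SD was allowed on each side.

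*Srsf5* (110.2 ± 12.9) and *Srsf7* (97.1 ± 13.1 CPM per kb) formed the next pair, again within 1 SD of each other. *Srsf3* stood alone at 63.7 ± 2.8 CPM per kb. *Srsf9* (47.8 ± 7.9), *Srsf11* (45.3 ± 1.8) and *Srsf10* (41.8 ± 2.3 CPM per kb) each overlapped the neighbour in this order, and *Srsf4* was lowest at 35.0 ± 1.8 CPM per kb. This is an order of levels over all annotated exons of a gene, so genes with long retained introns in the annotation sit lower than their mature transcripts would.

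*Srsf2* remained highest per kb in the other 3 groups, with 283.3 ± 12.2 in KO at day 0, 208.5 ± 14.5 in WT at day 3 and 230.8 ± 20.6 CPM per kb in KO at day 3. In WT at day 3 it overlapped *Srsf1* at 172.1 ± 30.7 CPM per kb within 1 SD. The lowest level belonged to *Srsf4* in both groups at day 3, with 27.4 ± 1.9 in WT and 36.0 ± 1.5 CPM per kb in KO. In KO ESCs at day 0 it belonged to *Srsf9*, with 34.4 ± 1.6 against 40.3 ± 1.8 CPM per kb for *Srsf4*. The 10 genes summed to 4686 to 4841 CPM in WT and 4701 to 5259 CPM in KO samples at day 0, and to 3666 to 4712 and 4430 to 5211 CPM at day 3.

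**Figure D1:**
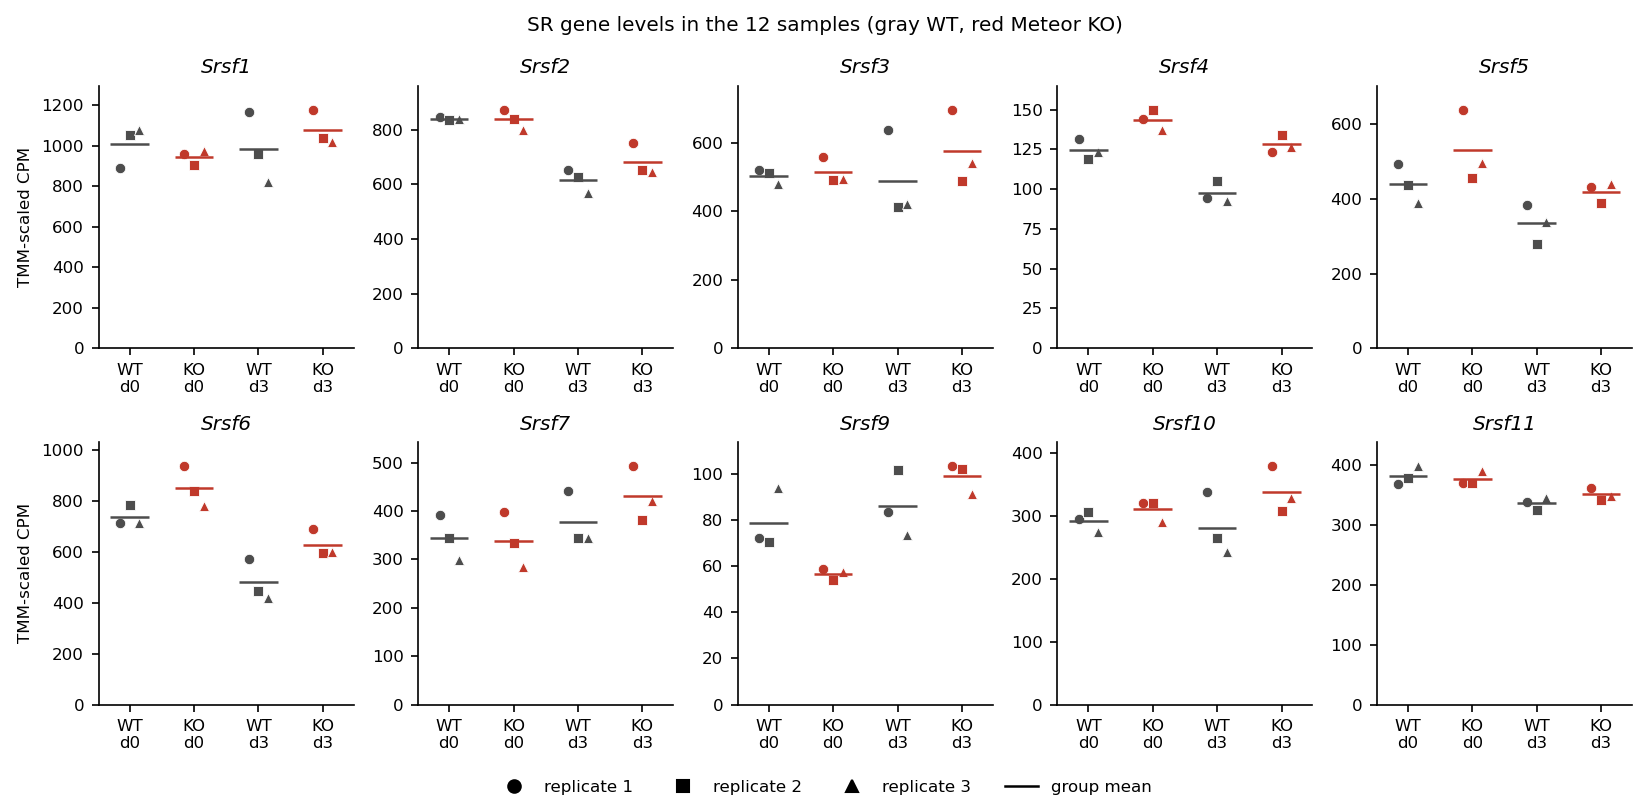
TMM-scaled CPM (y axis, from 0) of the 10 SR genes in each of the 12 samples, with 1 symbol per replicate number and a line at the group mean. *Srsf4*, *Srsf5* and *Srsf6* were higher in all 3 KO than in all 3 WT samples at day 3, *Srsf9* was lower in all 3 KO samples at day 0, and replicate 1 was the highest sample of both genotypes at day 3 for 6 of the 10 genes. Over all tested genes, the KO samples all exceeded the WT samples for 20.8% at day 3 and fell below for 17.4% at day 0.

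To ask whether the SR genes respond to deletion of the enhancer in pluripotent cells, KO and WT ESCs were compared at day 0. *Srsf9* was lower in KO cells and was the 1 gene of the 10 that passed an adjusted p of 0.05 in the edgeR quasi-likelihood test, where 10.9% of all tested genes were called lower. The other 9 did not pass. Of the 10 log2 fold changes 5 were positive and 5 negative, with a median of 0.01 beside -0.01 over all tested genes.

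*Srsf9*, an SR protein with a short arginine-serine tail, was at 72.5, 70.6 and 94.1 CPM in the 3 WT samples and at 59.0, 54.0 and 57.7 CPM in the 3 KO samples. All KO samples were below all WT samples, as they were for 17.4% of all tested genes. The highest value, WT replicate 3, stood furthest from the rest. The log2 fold change was -0.48 (standard error 0.14, edgeR adjusted p = 0.0431). Without WT replicate 3 it was -0.28, and the call was lost there and also without any single KO replicate (-0.52, -0.42 and -0.49), so the adjusted p ranged from 0.00381 to 0.197 over 15 alternatives.

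*Srsf4*, *Srsf5* and *Srsf6*, which share with *Srsf1* and *Srsf9* a pair of RNA recognition motifs, were higher in KO cells in all 3 same-numbered pairs at day 0, as was *Srsf10* and as were 31.1% of all tested genes. *Srsf4* was at 131.6, 119.0 and 123.1 CPM in WT and at 144.0, 149.8 and 137.0 CPM in KO samples, with no overlap. Such a gap with KO above WT was found for 16.8% of all tested genes. *Srsf5* was at 492.8, 436.2 and 389.9 CPM in WT and at 638.4, 456.5 and 494.9 CPM in KO samples, which overlapped. *Srsf6* was at 712.5, 782.8 and 714.6 CPM in WT and at 937.8, 840.1 and 780.1 CPM in KO samples, and KO replicate 3 fell below WT replicate 2.

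Their log2 fold changes were 0.20, 0.26 and 0.20, with edgeR adjusted p of 0.0859, 0.0885 and 0.145. With the replicate number as a block within each day, *Srsf4* (0.21, edgeR adjusted p = 0.0262) and *Srsf5* (0.26, edgeR adjusted p = 0.0287) passed, *Srsf6* (0.21, edgeR adjusted p = 0.0526) did not, and *Srsf9* stayed lower (edgeR adjusted p = 0.0045). In that fit 16.8% of all tested genes were called higher, against 9.56% in the fit with 1 block over both days.

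The genes with a single RNA recognition motif did not pass at day 0, and neither did *Srsf1*. *Srsf2* was at 846.9, 834.8 and 837.6 CPM in WT and at 872.7, 840.5 and 800.4 CPM in KO samples, so the WT samples lay within the range of the KO samples. *Srsf3*, which couples splicing to mRNA export, was at 519.4, 512.5 and 478.3 CPM in WT and at 557.0, 491.1 and 493.1 CPM in KO samples. *Srsf10*, known as a repressor of splicing when it is dephosphorylated, was at 295.1, 307.2 and 275.1 CPM in WT and at 321.0, 320.8 and 289.9 CPM in KO samples.

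Both groups overlapped for each of these 3 genes. *Srsf7*, which carries a zinc knuckle beside its RNA recognition motif, was at 391.6, 343.8 and 298.7 CPM in WT and at 398.5, 335.0 and 284.0 CPM in KO samples. *Srsf11* was at 368.6, 379.7 and 398.9 CPM in WT and at 370.0, 370.5 and 391.2 CPM in KO samples. *Srsf1* was at 889.5, 1054.9 and 1076.2 CPM in WT and at 960.1, 907.3 and 972.3 CPM in KO samples. These 3 genes overlapped between the groups too. Log2 fold changes of these 6 genes lay between -0.09 (*Srsf1*) and 0.09 (*Srsf10*), with standard errors between 0.06 and 0.12. Signs near 0 depended on scaling, since *Srsf2* was at -0.01 with TMM and 0.01 with RLE factors.

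KO and WT cells were compared in the same way at day 3 of differentiation. *Srsf4*, *Srsf5*, *Srsf6* and *Srsf10* rose in KO against WT cells, 4 of the 10 genes, where 14.3% of all tested genes were called higher, and none of the 10 was called lower, where 16.7% of tested genes were. All 10 log2 fold changes were positive, from 0.06 to 0.40, with a median of 0.22 beside -0.00 over all tested genes. The KO sample was above the WT sample of the same number in 3 of 3 pairs for every one of the 10, as it was for 34.9% of all tested genes. All KO samples were above all WT samples for 3 of the 10 (*Srsf4*, *Srsf5* and *Srsf6*) and for 20.8% of tested genes. The changes were moderate, and none of the 10 passed when a log2 fold change above 0.5 was also asked for, where 22.7% of all tested genes did. With library sizes alone in place of TMM factors, *Srsf11* turned to -0.01 and 2 genes were called. That fit called 31% of all tested genes in either direction.

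**Figure D2:**
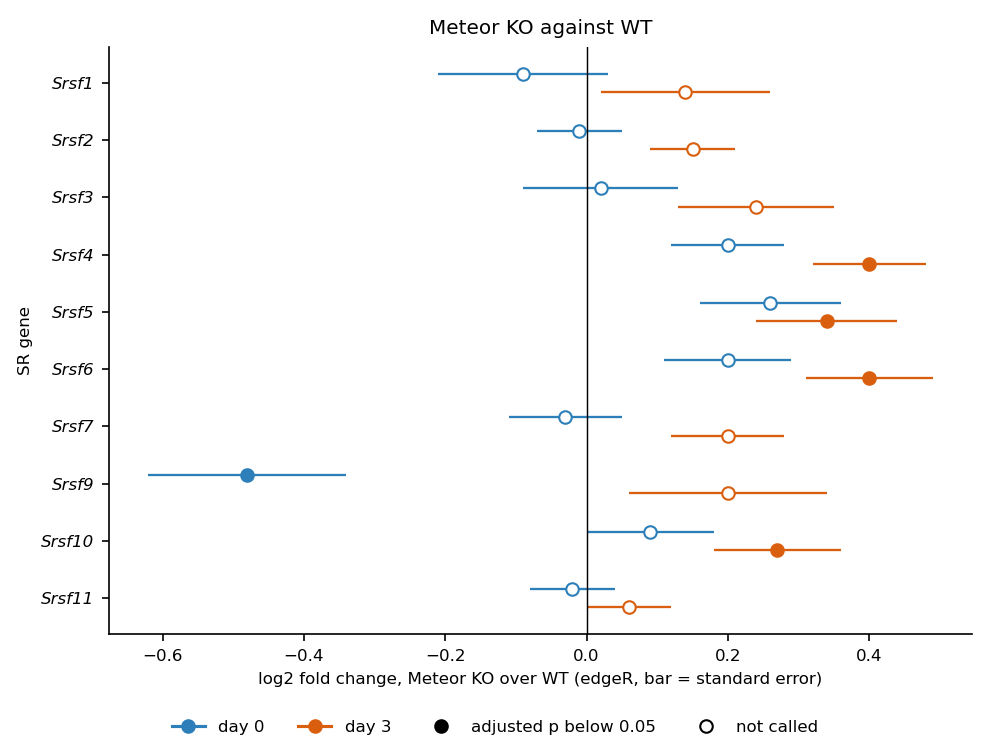
Log2 fold change of *Meteor* KO over WT (x axis) for the 10 SR genes (y axis) at day 0 in blue and day 3 in orange, with the standard error from edgeR as bars and filled symbols for an adjusted p below 0.05. All 10 estimates at day 3 lie right of 0, between 0.06 and 0.40, while at day 0 *Srsf9* lies at -0.48 and the median of the 10 at 0.01.

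*Srsf4* was at 94.4, 105.3 and 92.6 CPM in WT and at 123.6, 134.3 and 126.6 CPM in KO samples at day 3. Every KO sample was above every WT sample, and replicate 2 was the highest of both genotypes. The gene rose by a log2 fold change of 0.40 (standard error 0.08, edgeR adjusted p = 0.00381), a fold of 1.32, and passed under all 15 alternatives. An antisense transcript, *Gm12992*, overlaps *Srsf4* and shares 62.5% of the 100-base words of its principal transcript. It was counted at 1.59 to 3.53 CPM, and whether counting used the strand is not given in the sources used here.

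*Srsf6* was at 572.7, 447.6 and 419.5 CPM in WT and at 691.8, 596.8 and 599.0 CPM in KO samples. The groups did not overlap, although WT replicate 1 came close to the lowest KO sample, replicate 2. *Srsf6* rose by a log2 fold change of 0.40 (standard error 0.09, edgeR adjusted p = 0.00925), again a fold of 1.32 and under all 15 alternatives. None of its 100-base words occurs in another annotated gene.

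*Srsf5* was at 384.3, 280.3 and 338.4 CPM in WT and at 431.1, 387.7 and 439.1 CPM in KO samples, with no overlap but only a narrow gap between WT replicate 1 and KO replicate 2. It rose by a log2 fold change of 0.34 (standard error 0.10, edgeR adjusted p = 0.0254), and passed under 10 of 15 alternatives. Without WT replicate 2 it was 0.27, without KO replicate 2 it was 0.32 and without KO replicate 3 it was 0.30, and each of these missed the threshold. Without a replicate block the adjusted p of *Srsf5* in edgeR was 0.114, and with the block within each day it was 0.00692.

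*Srsf10* was at 338.1, 264.6 and 242.0 CPM in WT and at 379.5, 307.6 and 329.4 CPM in KO samples. The groups overlapped because replicate 1 was highest in both genotypes, and WT replicate 1 exceeded KO replicates 2 and 3. Its rise of 0.27 (standard error 0.09, edgeR adjusted p = 0.0492) was at the edge of the threshold and held under 7 of 15 alternatives. It was lost without WT replicate 2 (0.24), WT replicate 3 (0.24), KO replicate 1 (0.25) or KO replicate 3 (0.26). The edgeR adjusted p of *Srsf10* was 0.126 without a replicate block and 0.00633 with the block within each day.

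The 6 other genes did not pass in the fit with 1 block over both days. *Srsf3* was at 635.1, 410.6 and 419.6 CPM in WT and at 695.3, 487.6 and 540.3 CPM in KO samples, and *Srsf7* at 441.9, 344.3 and 343.6 CPM in WT and at 493.2, 381.7 and 421.1 CPM in KO samples. In both genes replicate 1 was far above replicates 2 and 3 in both genotypes, while KO exceeded WT within each pair. Their log2 fold changes were 0.24 (edgeR adjusted p = 0.119) and 0.20 (edgeR adjusted p = 0.0778). With the block within each day they were 0.25 (edgeR adjusted p = 0.00978) and 0.20 (edgeR adjusted p = 0.0146), so that 6 of the 10 genes were called higher where 22.5% of all tested genes were. Without any block only *Srsf4* and *Srsf6* passed, where 26.4% of all tested genes were called in either direction.

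*Srsf1* was at 1169.1, 958.5 and 821.2 CPM in WT and at 1177.7, 1037.9 and 1017.5 CPM in KO samples at day 3, and *Srsf2* at 654.0, 626.5 and 570.1 CPM in WT and at 752.9, 651.7 and 643.5 CPM in KO samples. *Srsf9* was at 83.6, 101.9 and 73.5 CPM in WT and at 103.6, 102.2 and 91.6 CPM in KO samples. *Srsf11* had the narrowest spread, with 339.0, 326.1 and 345.0 CPM in WT and 362.0, 343.0 and 349.2 CPM in KO samples. The 2 groups overlapped for each of these 4 genes, and their log2 fold changes were 0.14, 0.15, 0.20 and 0.06, with edgeR adjusted p between 0.113 and 0.461. Leaving out 1 sample moved the number of genes called at day 3 between 2 (without WT replicate 2 or KO replicate 3) and 5 (without WT replicate 1). Over all tested genes these fits called 24.6%, 18.6% and 27.2%, in the order named, against 30.9% with all samples.

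**Figure D3:**
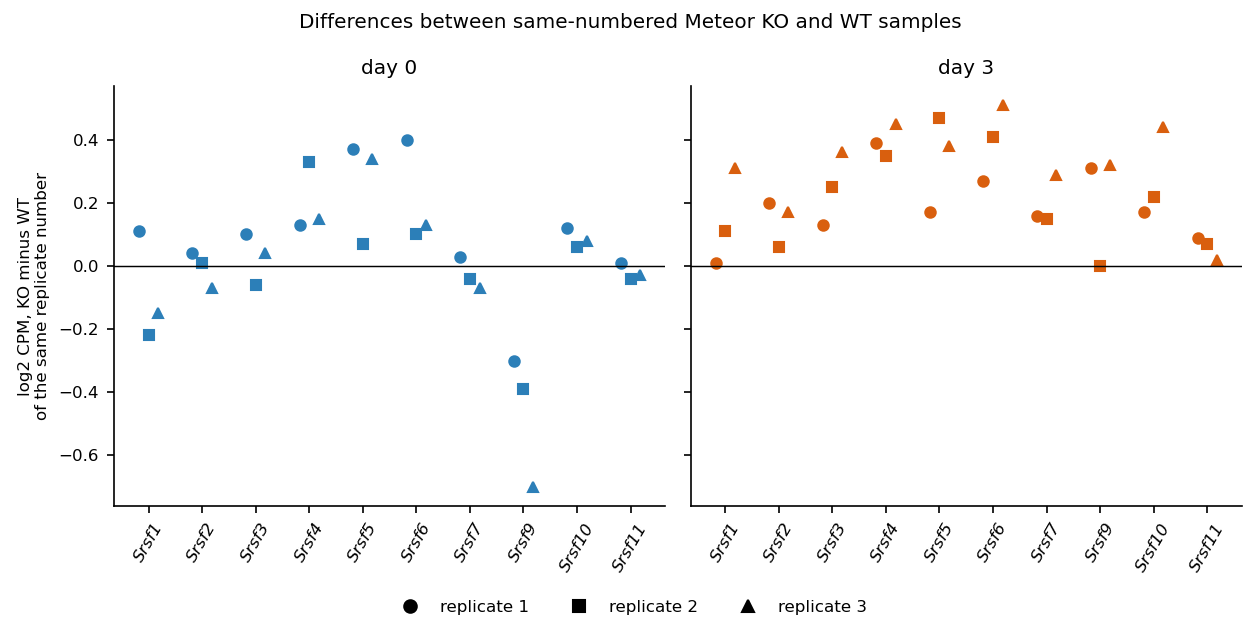
Difference in log2 CPM of each *Meteor* KO sample from its same-numbered WT sample (y axis) for the 10 SR genes (x axis), at day 0 on the left and day 3 on the right. At day 3 no difference is below 0, with the smallest for *Srsf9* in replicate 2 (0.00) and the largest for *Srsf6* in replicate 3 (0.51), whereas at day 0 the differences lie on both sides of 0.

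Whether the KO effect itself changed with differentiation was tested as the interaction of genotype and day. The difference was positive for all 10 genes, between 0.08 (*Srsf5* and *Srsf11*) and 0.68 (*Srsf9*), with a median of 0.19 beside 0.00 over all tested genes. Only *Srsf9* passed (0.68, standard error 0.20, edgeR adjusted p = 0.0498), where 8.21% of tested genes were called higher and 7.34% lower. This call held under 10 of 20 alternatives, and it was lost without WT day 0 replicate 3, which moved the value to 0.48, and without each of 8 other samples (0.57 to 0.77). With library sizes alone it was 0.63 with an edgeR adjusted p of 0.0557. With the block within each day it was 0.67 (edgeR adjusted p = 0.00468), in a fit that called 31.2% of all tested genes. *Srsf4*, *Srsf5*, *Srsf6* and *Srsf10*, called at day 3 and not at day 0, had interactions of 0.19, 0.08, 0.19 and 0.19 with edgeR adjusted p of 0.252, 0.747, 0.339 and 0.372, so their KO effect was not shown to differ between the days.

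The course from day 0 to day 3 was then followed in each genotype. These comparisons use the same 12 samples as those above. In WT cells *Srsf2*, *Srsf4*, *Srsf5*, *Srsf6* and *Srsf11* fell, 5 of the 10 genes, where 25.5% of all tested genes were called lower, and none was called higher, where 30.7% were. The median log2 fold change of the 10 was -0.13 beside 0.07 over all tested genes. Those 5 genes had all day 3 samples below all day 0 samples, as did 25.9% of tested genes.

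*Srsf6* fell most in WT cells, by 0.63 on the log2 scale (standard error 0.09, edgeR adjusted p = 0.000289), from a mean of 736.6 ± 40.0 to 479.9 ± 81.6 CPM (SD, n = 3). *Srsf2* fell from 839.8 ± 6.4 to 616.9 ± 42.8 CPM (-0.45, standard error 0.06, edgeR adjusted p = 0.000288). *Srsf5* fell from 439.7 ± 51.5 to 334.3 ± 52.1 CPM and *Srsf4* from 124.6 ± 6.4 to 97.5 ± 6.9 CPM, with log2 fold changes of -0.40 and -0.36. These 4 genes passed under all 14 alternatives. *Srsf11* fell from 382.4 ± 15.3 to 336.7 ± 9.7 CPM (-0.18, edgeR adjusted p = 0.0237) and passed under 8 of 14. Its call was lost without WT day 0 replicate 2, WT day 0 replicate 3 or WT day 3 replicate 2, with -0.17 in each case, and with library sizes alone (-0.07). *Srsf6* was also the 1 gene called past a log2 fold change of 0.5, where 44.4% of all tested genes were.

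The 5 other genes did not pass in WT cells. *Srsf1* (-0.05), *Srsf3* (-0.07) and *Srsf10* (-0.07) had standard errors of 0.12, 0.11 and 0.09, and their signs turned with library sizes alone (0.07, 0.04 and 0.05). *Srsf7* and *Srsf9* had log2 fold changes of 0.13 and 0.12. *Srsf7* was called higher with library sizes alone (0.24).

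In KO cells *Srsf2*, *Srsf5* and *Srsf6* fell, 3 of the 10 genes, where 27.2% of tested genes were called lower. *Srsf7* and *Srsf9* rose, where 29.4% were called higher. The median of the 10 was 0.01 beside 0.03 over all tested genes. *Srsf6* fell from 852.6 ± 79.6 to 629.2 ± 54.3 CPM (-0.44, standard error 0.09, edgeR adjusted p = 0.00223) and *Srsf2* from 837.9 ± 36.2 to 682.7 ± 60.9 CPM (-0.30, standard error 0.06, edgeR adjusted p = 0.00288). *Srsf5* fell from 529.9 ± 95.9 to 419.3 ± 27.7 CPM (-0.32, edgeR adjusted p = 0.0165). That call held under 11 of 14 alternatives. It was lost without KO day 0 replicate 1 (-0.25), without KO day 3 replicate 1 (-0.24) and without a replicate block (edgeR adjusted p = 0.0651).

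*Srsf9* showed the largest change of the 10 in any of these comparisons. It rose in KO cells from 56.9 ± 2.6 to 99.1 ± 6.6 CPM, which is 0.80 on the log2 scale (standard error 0.14, edgeR adjusted p = 0.000982), and passed under all 14 alternatives. In WT cells it went from 79.1 ± 13.0 to 86.3 ± 14.4 CPM. *Srsf7* rose in KO cells from 339.2 ± 57.4 to 432.0 ± 56.5 CPM (0.36, edgeR adjusted p = 0.00347), but its day 0 and day 3 samples overlapped and the call was lost without a replicate block (edgeR adjusted p = 0.0709). *Srsf4* went from 143.6 ± 6.4 to 128.2 ± 5.5 CPM without passing (-0.16, edgeR adjusted p = 0.0879).

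**Figure D4:**
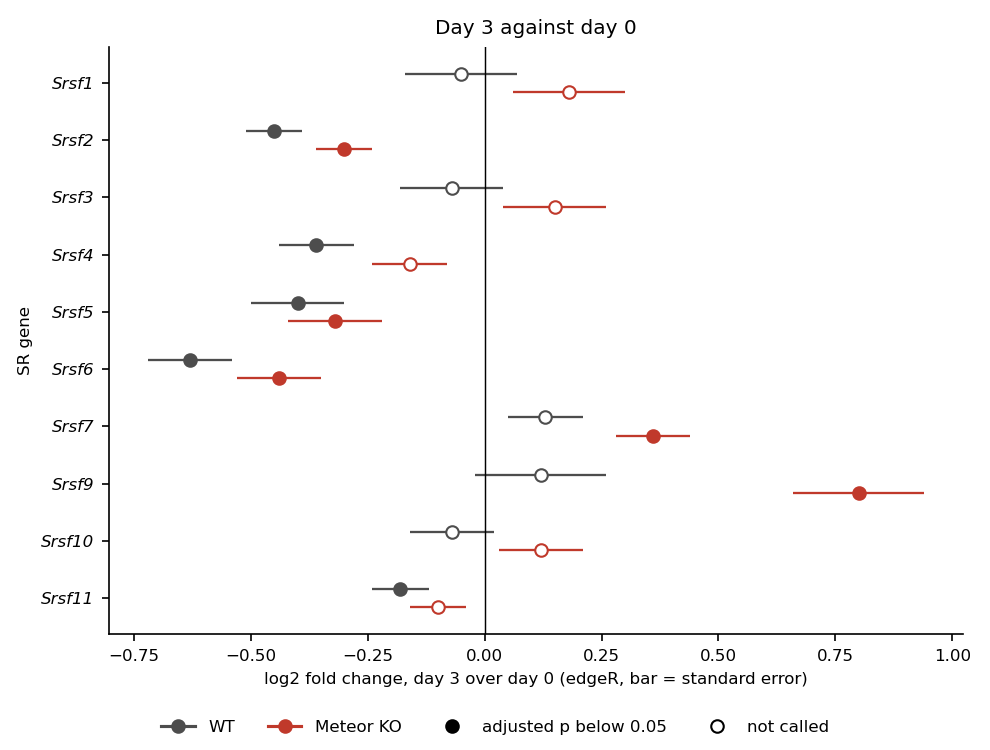
Log2 fold change of day 3 over day 0 (x axis) for the 10 SR genes (y axis) in WT (gray) and *Meteor* KO cells (red), with the standard error from edgeR as bars and filled symbols for an adjusted p below 0.05. *Srsf2*, *Srsf5* and *Srsf6* lie left of 0 with filled symbols in both genotypes, and *Srsf9* in KO cells lies furthest right at 0.80.

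The genes whose pattern over the 12 samples was most like the mean of the 10 were *Tyw5* (Pearson r of log2 CPM 0.96), *Cep57* (0.94), *Med28* (0.93), *Chtop* (0.93) and *Ppm1a* (0.92). The 12 samples share their groups, replicate numbers and depth. Log2 fold changes of these genes in KO against WT at day 3 were 0.28, 0.34, 0.42, 0.24 and 0.16, in the order named. From day 0 to day 3 in WT they were -0.28, -0.25, -0.39, -0.19 and -0.18.

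The machinery around the SR proteins was counted from lists of known factors, and the counts are read beside the shares of all tested genes. In KO against WT cells these shares were 9.56% higher and 10.9% lower at day 0, and 14.3% higher and 16.7% lower at day 3. With the block within each day they were 16.8% and 18% at day 0, and 22.5% and 24.4% at day 3. Of the 3 other SR and Tra2 genes, none was called between KO and WT at either day. *Tra2b*, a sequence-specific splicing activator, had a log2 fold change of 0.23 at day 3 (edgeR adjusted p = 0.112) and *Tra2a* of 0.15 (edgeR adjusted p = 0.0845). Both passed with the block within each day (edgeR adjusted p = 0.0188 and 0.0416).

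SR proteins are phosphorylated by the SRPK and CLK kinases and carried into the nucleus by transportin 3. Of these 9 genes 8 were tested, *Srpk3* being below the filter, and none was called at day 0. At day 3 *Srpk2* (0.33, edgeR adjusted p = 0.0191) and *Tnpo3*, the import receptor (0.26, edgeR adjusted p = 0.0142), rose in KO against WT cells. *Clk1*, a nuclear kinase of SR proteins, fell from a mean of 175 CPM in WT to 148 CPM in KO cells (-0.24, edgeR adjusted p = 0.0328). *Clk4* was at 82.9 and 67.7 CPM and did not pass (-0.30, edgeR adjusted p = 0.0572). With the block within each day *Clk4* passed as lower at day 3 (edgeR adjusted p = 0.0125) and at day 0 (edgeR adjusted p = 0.0427). In that fit 3 of the 8 were called higher and 3 lower at day 3, in place of 2 and 1. The median of the 8 was 0.10.

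Among 10 SR-related splicing coactivators, *Rnps1* fell at day 0 (-0.39, edgeR adjusted p = 0.0254) and *Scaf4* rose at day 3 (0.51, edgeR adjusted p = 0.000907), and the others did not pass in KO against WT cells. The within-day block called 6 of the 10 higher at day 3, and *Scaf4* passed at day 0 as well (0.21, edgeR adjusted p = 0.0276). From day 0 to day 3 in WT cells 7 of the 10 fell, where 25.5% of all tested genes did, with a median of -0.33, among them *Scaf4* (-0.72). In KO cells 3 fell and 2 rose, where 27.2% and 29.4% of all tested genes did.

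Of the 7 U1 and U2AF proteins, which recognise the 5′ and 3′ splice sites, none was called at day 0. At day 3 *U2af1* (0.26), *U2af2* (0.27) and *Snrnp70* (0.21, edgeR adjusted p = 0.0428) rose in KO against WT cells, with a median of 0.21 for the 7. The within-day block called 2 higher and 1 lower at day 0, and 5 higher at day 3. In WT cells 4 of the 7 fell from day 0 to day 3, beside 25.5% of all tested genes, and *Snrnp70*, a core U1 protein, went from 465 to 337 CPM.

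Of 23 hnRNP genes, which often act against SR proteins at exons, 3 rose and 2 fell in KO cells at day 0, where 9.56% and 10.9% of all tested genes did. At day 3, 9 rose and 2 fell, where 14.3% and 16.7% of all tested genes did, with a median of 0.13. Under the within-day block the counts were 4 and 3 at day 0 and 11 and 3 at day 3. The smallest adjusted p at day 3 belonged to *Ptbp3* (-0.74, edgeR adjusted p = 0.000126), *Hnrnpdl* (0.45, edgeR adjusted p = 0.000626), *Hnrnpu* (0.48, edgeR adjusted p = 0.005) and *Hnrnpd* (0.46, edgeR adjusted p = 0.0057). At day 0 it belonged to *Hnrnpab*, which fell by 0.54 on the log2 scale (edgeR adjusted p = 0.00365).

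Because poison-exon transcripts are removed by NMD, the NMD factors were counted as well. *Upf3b*, which bridges the exon junction complex and the decay machinery, was at 45.5 to 55.9 CPM in WT and at 0.224 to 0.661 CPM in KO samples at day 0. At day 3 it was at 48.7 to 55 CPM in WT and at 0 to 0.0416 CPM in KO samples (edgeR adjusted p = 3.09e-07). The KO libraries therefore lacked nearly all *Upf3b* RNA at both days, beside the SR values above, and its part in them was not tested.

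Of the 10 NMD factors, 3 rose and 2 fell in KO cells at day 0, and 4 rose and 3 fell at day 3. Over all tested genes 9.56% rose and 10.9% fell at day 0, and 14.3% and 16.7% at day 3. Under the within-day block 4 rose and 4 fell at day 0, and 5 rose and 3 fell at day 3. *Smg5* rose at day 3 by a log2 fold change of 0.33 (edgeR adjusted p = 0.00382). *Smg8* fell at both days, by 0.32 and 0.40 on the log2 scale (edgeR adjusted p = 0.0213 and 0.00583). From day 0 to day 3 none of the 10 rose in either genotype, while 6 fell in WT and 8 in KO cells. Over all tested genes 30.7% rose and 25.5% fell in WT, and 29.4% rose and 27.2% fell in KO cells. Of the 5 exon junction complex genes, *Casc3* fell at both days (-0.46 and -0.33) and *Magohb* fell at day 0 from 18 to 3.65 CPM (-2.35, edgeR adjusted p = 8.33e-05). With the block within each day *Magohb* was also called lower at day 3 (-0.44, edgeR adjusted p = 0.0291).

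Genes with an annotated NMD transcript were set beside the rest of the tested protein-coding genes. At day 3, 16.2% of the 3856 genes with such a transcript and 13.9% of the 10321 genes without one were called higher in KO cells, and 14.3% and 19.1% were called lower. The median log2 fold changes were 0.04 and -0.04, against 0.22 for the 10 SR genes. At day 0, 11% of the genes with such a transcript and 9.13% of those without were called higher, and 8.58% and 12.9% lower. The medians at day 0 were 0.03 and -0.04, against 0.01 for the 10 SR genes. Genes with an NMD transcript also had a higher median level, 33.4 against 20 CPM. These figures are descriptions of the annotation classes and carry no test.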

How the data were processed

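RNA from 12 samples was sequenced after poly(A) selection. The deposited values are raw read counts per Ensembl gene. Per the submitters' processing notes and the study's methods, the authors made them with HTSeq 0.6.1 from STAR 2.4.2a alignments to GRCm38 of reads trimmed by cutadapt 1.3. The strand setting is not given in the sources used here. Rows that name no gene held between 46.3% and 51.0% of the entries of a sample, mostly reads aligned to several places, and stayed out of library sizes and tests. Reads shared with a near-identical copy are therefore lost from a gene. This touches *Srsf3* (20.7% of its 100-base words occur in other annotated genes), *Srsf5* (17.9%) and *Srsf10* (7.9%), each with a copy elsewhere in the genome. *Srsf2* (30.6%) and *Srsf4* (62.5%) share words with genes on the other strand of the same place, *Mettl23* and *Mfsd11* for *Srsf2* and *Gm12992* for *Srsf4*. Such reads would be left out as ambiguous only if counting ignored the strand. *Srsf6*, *Srsf7*, *Srsf9* and *Srsf11* share none.

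Gene names came from GENCODE M21. Counts were tested with edgeR 4.0.16 (R 4.3.3), using TMM factors, genes above 1 CPM in at least 1 sample, 1 quasi-likelihood fit of all 12 samples with a coefficient per group, and the replicate number as a block, standing for the batch factor that the study's methods name without defining. A gene was called at a Benjamini-Hochberg adjusted p below 0.05 over all 15673 tested genes. Levels are TMM-scaled CPM. Alternatives changed the block, the normalization, the filter, the fold minimum, the samples or the tool (limma 3.58.1, DESeq2 1.42.0). The edgeR fit was tested on simulated data.

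Within a day, deviations of same-numbered KO and WT samples from their group means correlated in all 6 pairs (0.381 to 0.747 over 9494 genes). The mean was -0.053 for the same number on the other day. It was -0.283 for other numbers of the same day, which is no separate evidence, because deviations from a group mean cancel within the group. The numbers were therefore taken to pair KO and WT samples within a day, and the fit blocked within each day is given where it changes a call of an SR gene or the count of a list in KO against WT. The main calls still come from the fit with 1 block over both days, although no such correlation was seen across days. The 10 genes, the further gene lists and the alternatives were chosen with earlier results of these data known. All 10 genes are named, along with *Tra2a*, *Tra2b*, *Clk1*, *Clk4*, *Snrnp70* and *Upf3b*, the Meteor-locus transcript, 5 genes of the most similar pattern, and at most 4 genes of a list per comparison, those with the smallest adjusted p among genes that passed in KO against WT. The values of 1 gene that this rule would name are not reported here.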

Additional observations from a re-analysis of the deposited data

Results flagged for a closer look

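Among the 10 SR genes and the lists around them, 7 genes were singled out because the KO effect itself differed between the days in the edgeR interaction test. Those lists held 3, 8, 10, 23, 7, 10 and 5 tested genes, and over all tested genes the same test called 15.5%. *Srsf9* had a difference of 0.68 on the log2 scale (edgeR adjusted p = 0.0498), which held under 10 of 20 alternatives. It was called lower in KO cells at day 0 (-0.48) and was not called at day 3 (0.20, edgeR adjusted p = 0.316). At day 3 the KO sample was above the WT sample in 3 of 3 same-numbered pairs, as for 34.9% of all tested genes. In pair 2 the log2 difference was only 0.00 after rounding. *Clk1* had a difference of -0.38 (edgeR adjusted p = 0.033), with group means of 197 CPM in WT and 217 CPM in KO at day 0, and 175 and 148 CPM at day 3, and held under 10 of 20. *Srpk2* had a difference of 0.46 (edgeR adjusted p = 0.0329, 11 of 20) and *Hnrnpdl* of 0.33 (edgeR adjusted p = 0.0286, 9 of 20). *Magohb* (1.91, edgeR adjusted p = 0.00148) and *Ptbp3* (-0.78, edgeR adjusted p = 0.00146) held under all 20. *Upf3b* had a fitted difference of -4.37 (edgeR adjusted p = 0.00349). This value depends on how counts near 0 are fitted, since KO means were 0.465 CPM at day 0 and 0.0139 CPM at day 3, against 52 and 51.1 CPM in WT.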

How the results depend on the processing

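With the replicate block within each day, 3 of the 10 SR genes were called at day 0 in place of 1, the calls over all tested genes went from 3201 to 5447 at day 0, from 4846 to 7347 at day 3 and from 2436 to 4889 for the interaction, and at day 3 the SR count was 6 in place of 4. Only the 6 samples of the comparison gave 3 at day 0 (5356 over all genes) and DESeq2 gave 2 (3655 over all genes). Without a replicate block the count was 2 at day 3 and 3 in place of 5 from day 0 to day 3 in KO cells. Over all genes that fit called 4134 at day 3, and 8301 in place of 8864 from day 0 to day 3 in KO cells. Library sizes alone gave 2 at day 3 (4854 over all genes) and 0 for the interaction (2463 over all genes). They moved the median of all genes from day 0 to day 3 in WT from 0.07 to 0.19. A minimum log2 fold change of 0.5 left 0 of the 10 at day 0, 0 at day 3 and 1 each from day 0 to day 3 in WT and in KO cells. Over all tested genes it left 15.2%, 22.7%, 44.4% and 45.1%, in the same order. Leaving out 1 sample gave 0 to 2 genes at day 0, 2 to 5 at day 3, 4 to 5 from day 0 to day 3 in either genotype and 0 to 1 for the interaction. Over all tested genes these fits called 11% to 18.2% at day 0, 18.6% to 27.2% at day 3 and 8.91% to 15.4% for the interaction. From day 0 to day 3 they called 46.4% to 52% in WT and 48% to 51% in KO cells.

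Signs turned only for genes that were not called. At day 0, *Srsf2* turned to 0.01 with DESeq2 and with RLE factors and *Srsf3* to -0.003 with library sizes alone. At day 3 *Srsf11* turned to -0.01 with library sizes alone, and from day 0 to day 3 in WT *Srsf1*, *Srsf3* and *Srsf10* turned to 0.07, 0.04 and 0.05. Leaving out 1 sample moved *Srsf1* between -0.24 and 0.01, *Srsf2* between -0.05 and 0.04, *Srsf3* between -0.08 and 0.12 and *Srsf7* between -0.07 and 0.03 at day 0. It moved *Srsf1* between -0.20 and 0.05, *Srsf3* between -0.20 and 0.03 and *Srsf9* between -0.04 and 0.31 from day 0 to day 3 in WT, and the interaction of *Srsf5* between -0.01 and 0.17. The causes were not tested. Of 420 single-gene values under the other alternatives 386 kept their direction and side of the threshold, 12 lost the call, 15 gained it and 7 turned. Each SR gene had at least 980 counts in every sample.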
